A study of Homo sapiens with 6 samples.

Results

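The F-box proteins are the interchangeable subunits that tell the SCF ubiquitin ligases which proteins to mark. The family was taken here by name: every gene of the count table whose symbol is FBXL, FBXO or FBXW followed by a number was a member. This gave 61 genes of the 33451 in the table, of which 17 were FBXL, 35 FBXO and 9 FBXW genes, on 20 chromosomes.

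The samples were mRNA libraries of MDA-MB-453, an established human breast cancer cell line. Cells were kept for 5 days in medium with 100 nM 25-hydroxyvitamin D (25(OH)D), the form of the vitamin that circulates in blood, or with its alcohol solvent alone, which is called control here. Each group had 3 libraries from this 1 line and no other agent was added, and the study calls the libraries biological replicates without saying that they came from separate cultures, so the p-values measure the spread between these libraries. The comparison of 25(OH)D with control asks which F-box genes differed in RNA level after 5 days.

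The libraries held between 33268860 and 40928176 counts, and 3 counts were worth between 0.0720 and 0.0921 CPM (counts after scaling every library to the same total). F-box members took between 0.126% and 0.133% of the counts in control and between 0.120% and 0.124% in 25(OH)D. Mitochondrial genes took between 7.85% and 7.99% in control and between 8.89% and 9.24% in 25(OH)D, and their part in the results was not tested. All 7 markers of luminal breast cells were well above the low-count filter (EPCAM at 18014 to 21769 counts, for example), while the T cell gene CD3E was at 0 to 2 counts and the blood cell gene PTPRC at 0 to 6. The collagen gene COL1A1 was the exception among the markers of other cells, with 1119 to 1604 counts and a log2 fold change of -0.18 (adjusted p = 0.0320). Of the 9 such markers listed, 8 were in the table and 2 were tested, and the others ranged up to 24 counts in KRT14, which had 1 to 6 in control and 8 to 24 in 25(OH)D. Their part in the results was not tested.

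In an SCF ligase the cullin CUL1 is the scaffold, the RING protein RBX1 brings the ubiquitin-loaded enzyme, and SKP1 holds the F-box protein, which grips the target. FBXL proteins carry leucine-rich repeats for this, FBXW proteins carry a WD40 propeller, and FBXO proteins carry other domains or none that is recognised. Many targets are gripped only once they are phosphorylated, and the ligase works only while CUL1 carries the small protein NEDD8. The family is best known in breast and other cancers for the turnover of cyclins, of CDK inhibitors and of MYC. The tables measure RNA, so neither the F-box proteins nor the turnover of their targets was measured.

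Members of the family were called in both directions, and those called that moved by more than a factor of 2 all fell. Of the 61 members, 56 passed the low-count filter and were tested. Among these, 17 had an adjusted p under 0.05 by edgeR's quasi-likelihood test (30.4%, against 33.8% of all genes tested). Of the 17, 7 rose (12.5%, against 17.3% of all genes) and 10 fell (17.9%, against 16.5%). The shares of called genes were thus near those of all genes. The study's own limits are looser on p and stricter on size, and ask for a log2 fold change beyond 1 in either direction with an unadjusted p below 0.05. Past them in the fit made here lay 6.65% of all genes tested, 2.63% on the lower side and 4.02% on the higher side. The study itself reported fewer genes in each direction at these limits. Among the members, 4 fell past them (7.14%) and 0 rose past them. These 4 were FBXL7, FBXO2, FBXO32 and FBXO44. The median log2 fold change was -0.014 over the members tested, with quartiles of -0.22 and 0.12, and -0.011 over all 18183 genes tested, with quartiles of -0.23 and 0.22. The libraries were made from bulk cultures, so fewer cells expressing a gene and less of its RNA per cell cannot be told apart.

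**Figure D1:**
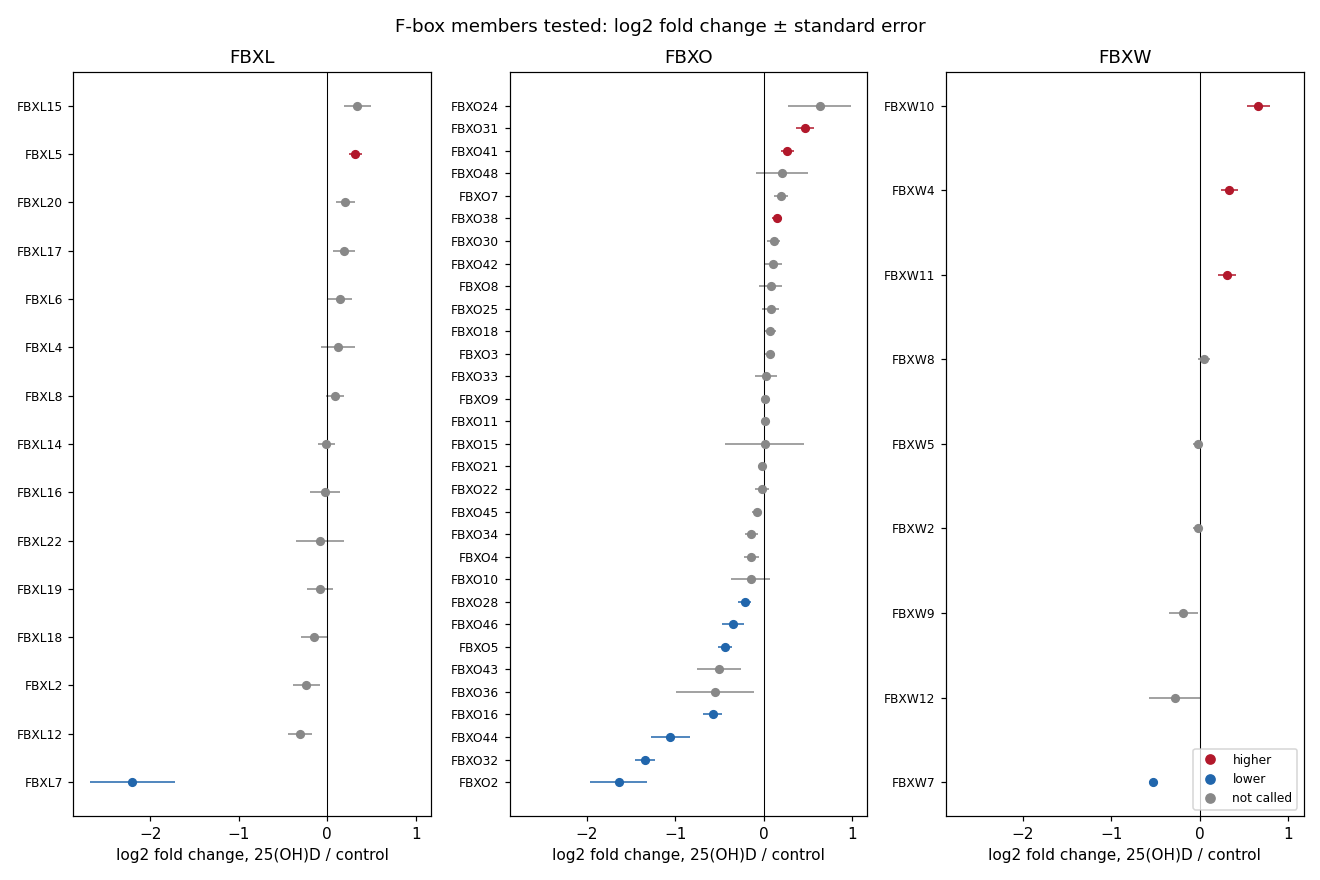
Log2 fold change of 25(OH)D over control (horizontal axis) for 55 of the 56 members tested, in 3 panels by subfamily, with points at the estimate and bars of 1 standard error. Red marks the 7 members called higher, blue 9 of the 10 called lower and grey the 39 not called; FBXL7, FBXO2, FBXO32 and FBXO44 lie to the left of -1 and no member lies to the right of 1.

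By subfamily the counts are small and are given beside the 17.3% of all genes that rose and the 16.5% that fell, with no test between subfamilies. Of 16 FBXL genes tested, 1 rose and 2 fell. Of 31 FBXO genes tested, 3 rose and 7 fell. Of 9 FBXW genes tested, 3 rose and 1 fell. The CPM values of the groups did not overlap for 22 of the 56 members (39.3%, against 45.7% of all genes tested), and for 16 of the 17 that were called. A call already favours groups that lie apart, so the last count adds no support of its own.

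Levels, given as RPKM, which are reads scaled to gene length and library total, covered a wide range. A mean of at least 5 RPKM over the 6 libraries was reached by 18 members, 23 more lay between 1 and 5, and 20 lay under 1. The median of the members tested was 2.32 RPKM. The 5 most abundant members per length were FBXW5, FBXO11, FBXO21, FBXO45 and FBXL14, in that order, and none of them was called. The most abundant member that was called was FBXL5, at rank 6, and FBXW7 followed at rank 7. All 4 members past the study's limits were lower in level, at ranks 30 for FBXO32, 44 for FBXO44, 45 for FBXO2 and 55 for FBXL7.

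**Figure D2:**
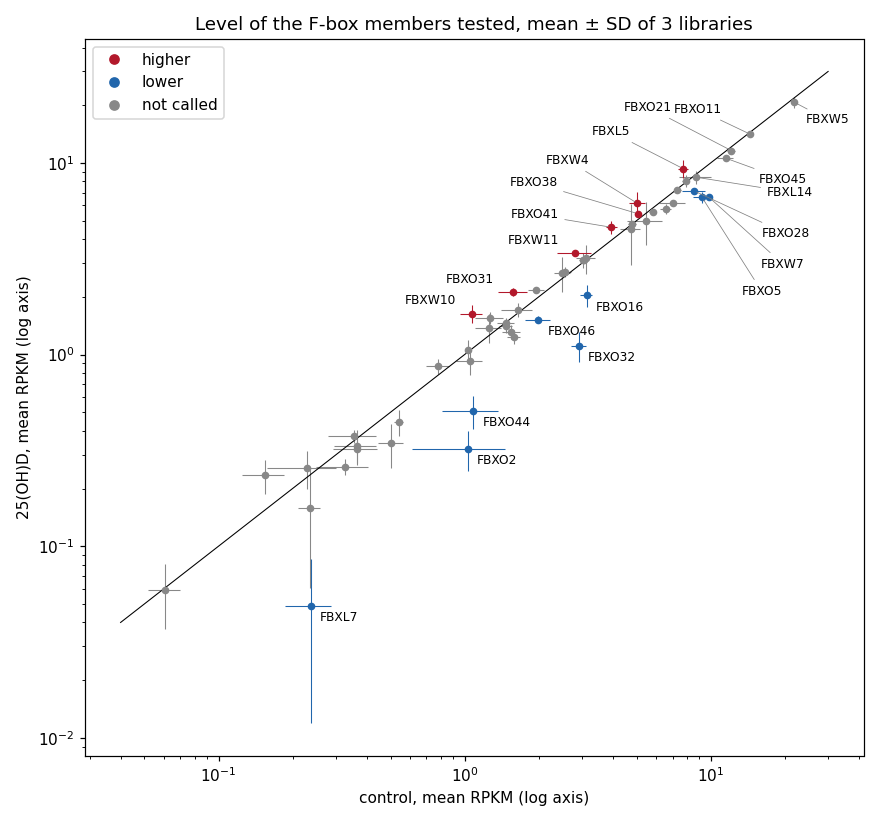
Mean RPKM in control (horizontal) and in 25(OH)D (vertical) for 55 of the 56 members tested, both on log axes, with bars of 1 SD over 3 libraries and a line of equal level. The most abundant members lie on the line, while FBXO32, FBXO44, FBXO2 and FBXL7, all under 3 RPKM in control, lie farthest below it.

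FBXW7, the receptor for phosphorylated cyclin E, MYC, JUN, NOTCH1 and MCL1, fell with the smallest adjusted p in the family. Its gene spans 152321259 to 152536101 on the minus strand of chromosome 4 (GRCh38, as in the table). It stood at 97.6, 99.5 and 103 CPM in the control libraries and at 68.4, 69.1 and 69.6 CPM in the 25(OH)D libraries. All 25(OH)D libraries were thus below all controls, and the values within each group were close together. The log2 fold change was -0.54 ± 0.0450 (SE, n = 3 and 3; adjusted p = 4.01e-07), so that its RNA fell by 31.0%. FBXW7 shares 127 exon bases with DEAR on the opposite strand, which fell by 1.13 on the log2 scale, and DEAR took few counts by comparison, at 91 to 148 in control against 3765 to 4064 for FBXW7.

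The genes of FBXW7's targets did not move in 1 direction. MYC fell from 29.3, 27.5 and 29.4 CPM to 12.7, 10.98 and 10.1 CPM (log2 fold change -1.35, adjusted p = 2.30e-08). JUN rose by 0.73 on the log2 scale (adjusted p = 2.35e-07). MCL1 rose by 0.16 (adjusted p = 0.0153), a call lost without control replicate 2 or 25(OH)D replicate 1 (adjusted p between 0.00317 and 0.0741 over the 6 omissions). CCNE1 (0.17), NOTCH1 (-0.05) and KLF5 (-0.08), whose protein is another target, were not called. CCNE2, the more abundant cyclin E gene (mean control 41.9 CPM, against 6.25 for CCNE1), was not called either. Its log2 fold change was -0.13 (adjusted p = 0.0819), its groups did not overlap, and it was called in 4 of the other settings.

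SKP2, CCNF and FBXO5 are F-box genes of the cell cycle, of which only FBXO5 carries a member's name. SKP2 and CCNF belong to a list of 11 F-box genes with other names, of which 10 were in the table under their own name and 7 were tested. FBXO5, also called EMI1, holds back the anaphase-promoting complex before mitosis. SKP2 marks the CDK inhibitor p27, and CCNF, cyclin F, marks the ribonucleotide reductase subunit RRM2 and the centriole protein CCP110. All 3 were lower in 25(OH)D.

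FBXO5 was at 32.2, 37.7 and 34.7 CPM in control and at 26.2, 27.1 and 23.9 CPM in 25(OH)D. The groups did not overlap, and the log2 fold change was -0.44 ± 0.0744 (SE, n = 3 and 3; adjusted p = 3.61e-04). SKP2 went from 13.3, 12.1 and 11.1 CPM to 8.88, 9.31 and 7.52 CPM, without overlap (-0.50 ± 0.109, adjusted p = 0.00236). CCNF went from 26.4, 27.2 and 25.0 CPM to 21.8, 24.7 and 19.6 CPM (-0.25 ± 0.0834, adjusted p = 0.0346). Its call was lost without control replicate 1 or 2 or without 25(OH)D replicate 1 or 3, where the adjusted p rose to at most 0.156. The DESeq2 Wald test and both log2 RPKM scales lost it too (adjusted p up to 0.0684). FBXO43, also called EMI2, the relative of FBXO5 that acts in oocytes, was at 91, 74 and 64 counts in control and 61, 39 and 46 in 25(OH)D, and was not called (log2 fold change -0.50, 95% interval -1.03 to 0.02).

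A list of 20 proliferation genes moved beside these: 14 fell (70%, against 16.5% of all genes tested), 0 rose, and the median log2 fold change was -0.33. The list was chosen with earlier results of these data known, and it was not tested as a set. CCNB2, a mitotic cyclin, had the smallest p (-0.87, adjusted p = 1.03e-08). The range of the list was wide, and CDC20 (0.02) and E2F1 (-0.10) were not called. The part of the proliferation genes in the fall of FBXO5, SKP2 and CCNF was not tested.

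The promoters of these genes differed in the elements of the late cell cycle. RefSeq windows of 300 bases on GRCh38.p14, from 250 bases before each start to 50 after it, were searched on both strands for the CCAAT box (CCAAT) and the CHR element (TTTGAA or else TTCGAA). CCNF held 4 CCAAT boxes, 250, 239, 210 and 106 bases before its start, and 2 CHR elements, whereas FBXO5 and SKP2 held 0 of either. CCAAT was in 34.6% of all 35116 windows and in 14 of the 47 members with a window (29.8%), of which 1 (FBXO46) was among the 7 that fell and had a window. The CHR element was in 16.4% of all windows and in 2 members (4.26%). A match is letters in a window and does not say whether a factor binds there.

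FBXO31, which marks cyclin D1 after DNA damage, rose. It was at 12.3, 9.57 and 10.3 CPM in control and at 14.7, 14.1 and 15.7 CPM in 25(OH)D, so that the lowest 25(OH)D library lay above the highest control. The log2 fold change was 0.46 ± 0.102 (SE, n = 3 and 3; adjusted p = 0.00263). Its exons (chromosome 16, 87326987 to 87392142, minus strand) share 388 of 6897 bases on the same strand with RP11-178L8.4, a gene of 30 to 60 counts. CCND1, the gene of cyclin D1, rose by 0.35 on the log2 scale (adjusted p = 9.64e-05). FBXO4, another receptor named for cyclin D1, was at -0.14 and was not called.

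The targets of SKP2 also moved in different directions as RNA. CDKN1B, the gene of p27, fell by 0.30 on the log2 scale (adjusted p = 6.44e-05). CDKN1A, the gene of p21, rose from 5.69, 5.79 and 5.73 CPM to 11.7, 15.3 and 14.3 CPM (1.26, adjusted p = 7.70e-07). CDT1, the replication licensing factor, fell by 0.39 (adjusted p = 0.00189). Of the CCNF targets, CCP110 fell by 0.42 (adjusted p = 1.50e-05), and RRM2 was at -0.12 with an adjusted p of 0.0504.

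FBXW11 and BTRC are the 2 β-TrCP genes. They encode near-alike receptors that grip the NF-κB inhibitor IκBα and β-catenin, and both rose. FBXW11 (chromosome 5, 171861549 to 172006873, minus strand) went from 17.5, 16.05 and 12.9 CPM to 19.5, 19.2 and 18.6 CPM. The lowest 25(OH)D library was above the highest control, and the log2 fold change was 0.30 ± 0.0988 (SE, n = 3 and 3; adjusted p = 0.0287). Without control replicate 3, its lowest library, the change was 0.20 (adjusted p = 0.1004), and the call was also lost without 25(OH)D replicate 1 or 2 (adjusted p over the 6 omissions between 0.00668 and 0.1004).

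BTRC went from 20.6, 19.1 and 19.6 CPM to 24.2, 22.5 and 23.8 CPM, without overlap (0.25 ± 0.0696, adjusted p = 0.0127). Its call was lost without control replicate 2 (adjusted p = 0.0517, the highest of the 6 omissions). On both log2 RPKM scales it was also lost (adjusted p up to 0.0738). NFKBIA, the gene of IκBα, rose from 66.7, 61.9 and 57.1 CPM to 272, 288 and 314 CPM (2.23, adjusted p = 2.29e-12). CTNNB1, the gene of β-catenin, rose by 0.23 (adjusted p = 0.00227), while WEE1 (0.09) and CDC25A (-0.17), cell cycle targets of β-TrCP, were not called.

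FBXO2 and FBXO44 were lower by more than a factor of 2 and are neighbours. They belong to the group of F-box proteins with an F-box-associated domain, known for FBXO2 and FBXO6 to bind the sugar chains of glycoproteins. FBXO2 had 141, 55 and 84 counts in control and 20, 31 and 30 in 25(OH)D. Every 25(OH)D library was below every control, and the controls differed widely, with replicate 1 the highest. The level went from 2.37 ± 0.969 to 0.765 ± 0.179 CPM (SD, n = 3), a log2 fold change of -1.64 ± 0.323 (SE; adjusted p = 0.00117). Without control replicate 1 it was -1.28, which was the smallest of the 6 omissions.

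FBXO44 had 174, 168 and 99 counts in control and 56, 63 and 73 in 25(OH)D. The groups did not overlap, and control replicate 3 was the lowest of its group. The level went from 3.77 ± 0.945 to 1.82 ± 0.361 CPM (SD, n = 3), a log2 fold change of -1.05 ± 0.223 (SE; adjusted p = 0.00198). It lay just past the study's limit and came inside it, at between -0.97 and -0.92, without control replicate 1 or 2 or without 25(OH)D replicate 1 or 2, while its adjusted p stayed at 0.0156 or less over the 6 omissions.

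FBXO6, the next member along the chromosome, begins 796 bases after FBXO44. It had 11, 8 and 4 counts in control and 2, 8 and 5 in 25(OH)D and did not pass the filter. FBXO17 and FBXO27, the other members of this group, lie 14803 bases apart on chromosome 19 and also did not pass. FBXO17 had 0 counts in each control and 2 in each 25(OH)D library, and FBXO27 had 3, 4 and 2 against 0, 0 and 4. A count of 0 allows up to 3 counts, so no difference was detectable for FBXO17.

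FBXO2 (chromosome 1, 11648367 to 11655785, minus strand) and FBXO44 (11654375 to 11663327, plus strand) overlap head to head, and share 267 exon bases on opposite strands. The libraries were made with a stranded kit, but the strand setting of the counting is not given in the sources used here, so reads of these bases may count for either gene. The RefSeq starts, at 11654407 for FBXO44 and 11654429 for FBXO2, are 22 bases apart. Their promoter windows are shown because they overlap: both contain the same 77 bases (11654380 to 11654456), in capitals, each read along its own gene's strand. The first window is chr1:11654157-11654456, plus strand, and the second is chr1:11654380-11654679, minus strand, both on GRCh38.p14.
FBXO44: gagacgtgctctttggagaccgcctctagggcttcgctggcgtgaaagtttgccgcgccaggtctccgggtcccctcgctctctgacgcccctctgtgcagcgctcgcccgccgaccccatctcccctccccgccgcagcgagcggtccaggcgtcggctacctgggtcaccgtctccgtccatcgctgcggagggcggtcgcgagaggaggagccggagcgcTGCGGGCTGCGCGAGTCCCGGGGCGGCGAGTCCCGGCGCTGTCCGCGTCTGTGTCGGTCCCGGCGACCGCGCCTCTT
FBXO2: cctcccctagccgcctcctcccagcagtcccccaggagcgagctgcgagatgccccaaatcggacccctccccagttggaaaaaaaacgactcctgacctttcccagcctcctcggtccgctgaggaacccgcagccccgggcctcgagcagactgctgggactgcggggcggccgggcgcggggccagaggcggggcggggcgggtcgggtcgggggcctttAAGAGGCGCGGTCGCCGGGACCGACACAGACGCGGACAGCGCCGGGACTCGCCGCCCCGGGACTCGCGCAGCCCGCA
A direct repeat of the kind bound by the vitamin D receptor, with 3 bases between its arms, was searched on both strands with AGGTCA or else GGTTCA or else AGTTCA or else GGGTCA as each arm, and was in 0 of the 47 member windows and in 0.074% of all windows. This says only that these letters are not in the windows searched.

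FBXO32, also called atrogin-1, is the F-box protein best known from wasting muscle. It was at 21.8, 22.3 and 19.6 CPM in control and at 8.48, 9.78 and 6.84 CPM in 25(OH)D. The groups were far apart, and the log2 fold change was -1.34 ± 0.113 (SE, n = 3 and 3; adjusted p = 4.14e-07), so that its RNA fell by 60.5%. The gene lies at 123497889 to 123541206 on the minus strand of chromosome 8. The fall was between -1.46 and -1.21 over the 6 omissions of a library.

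FBXL7, which marks the kinase Aurora A, had the lowest log2 fold change and few counts. It had 50, 50 and 32 counts in control and 2, 16 and 8 in 25(OH)D. The highest 25(OH)D library had fewer counts than the lowest control, and the 25(OH)D libraries differed widely among themselves. The level went from 1.13 ± 0.234 to 0.240 ± 0.180 CPM (SD, n = 3), with a log2 fold change of -2.20 ± 0.483 (SE; 95% interval -3.24 to -1.17; adjusted p = 0.00256). The change was -2.90 with 25(OH)D replicate 2 left out and -1.74 with 25(OH)D replicate 1 left out. AURKA, the gene of Aurora A, fell by 0.26 on the log2 scale (adjusted p = 0.00911).

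**Figure D3:**
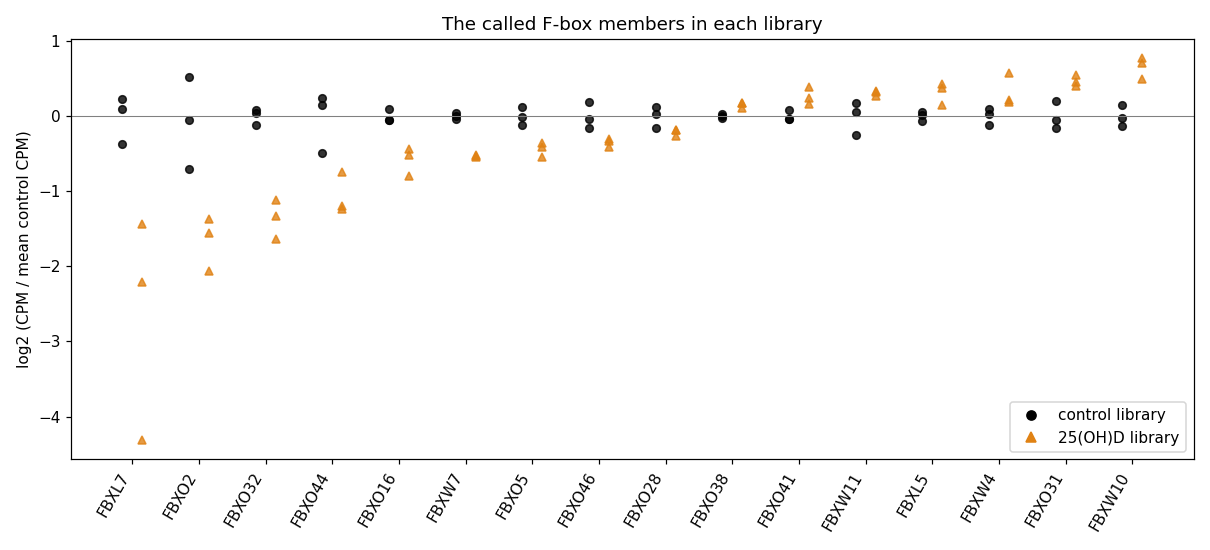
Log2 of the CPM in each library over the mean CPM of the 3 control libraries (vertical axis) for 16 of the 17 members called, ordered by log2 fold change, with black circles for control and orange triangles for 25(OH)D. FBXL7 spreads most among the 25(OH)D libraries and FBXO2 most among the controls, and in each member shown the triangles lie wholly above or wholly below the circles.

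FBXL5 senses iron and marks IRP2, the product of IREB2, when iron is plentiful. It was at 36.0, 35.1 and 33.3 CPM in control and at 45.1, 46.5 and 38.5 CPM in 25(OH)D, without overlap. The log2 fold change was 0.32 ± 0.0725 (SE, n = 3 and 3; adjusted p = 0.00347). IREB2 was at -0.05 and was not called.

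FBXW4 (chromosome 10, 101610664 to 101695295, minus strand), a WD40 member, rose from 25.6, 22.9 and 26.6 CPM to 28.5, 28.9 and 37.1 CPM. The groups did not overlap, and 25(OH)D replicate 3 stood above the other two. The log2 fold change was 0.33 ± 0.0967 (SE, n = 3 and 3; adjusted p = 0.0162). It was 0.21 without 25(OH)D replicate 3, and the call was lost there and without control replicate 2 (adjusted p between 0.0111 and 0.0799 over the 6 omissions).

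The promoters of FBXL5 and FBXW4 are shown because they were the members among those that rose with an E-box, CACGTG, the element bound by MYC and related factors. Capitals mark it, at 120 bases before the start of FBXL5 and 181 before that of FBXW4. The windows are chr4:15655308-15655607 and chr10:101695121-101695420 on GRCh38.p14, both minus strand, and the RefSeq start of FBXL5 lies inside the span of 15604539 to 15681679 that the table gives for the gene.
FBXL5: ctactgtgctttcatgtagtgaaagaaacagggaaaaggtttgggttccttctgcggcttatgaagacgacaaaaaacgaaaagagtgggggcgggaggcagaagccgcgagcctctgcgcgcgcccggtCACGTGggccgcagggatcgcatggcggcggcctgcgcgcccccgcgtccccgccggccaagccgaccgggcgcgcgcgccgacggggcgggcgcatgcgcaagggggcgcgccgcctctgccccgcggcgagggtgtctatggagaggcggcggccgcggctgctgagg
FBXW4: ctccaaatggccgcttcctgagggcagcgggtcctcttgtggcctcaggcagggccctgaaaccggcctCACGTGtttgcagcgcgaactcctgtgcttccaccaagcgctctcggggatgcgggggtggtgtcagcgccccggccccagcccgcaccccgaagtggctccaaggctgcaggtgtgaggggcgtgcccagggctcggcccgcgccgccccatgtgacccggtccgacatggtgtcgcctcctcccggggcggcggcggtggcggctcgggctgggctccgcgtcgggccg
CACGTG was in 4 of the 47 member windows (8.51%, against 7.26% of all windows), in 2 of the 7 members that rose and had a window, and in 0 of the 7 that fell and had one. These counts are too few to set the members apart from other genes.

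FBXW10 had the largest rise among the members called. It was at 5.12, 4.20 and 4.54 CPM in control and at 7.88, 7.54 and 6.48 CPM in 25(OH)D, without overlap. The log2 fold change was 0.66 ± 0.130 (SE, n = 3 and 3; adjusted p = 0.00115). The value is uncertain as a value of FBXW10 alone: 26.5% of the 100-base stretches of its transcripts also occur in CDRT1, an F-box gene of the same chromosome. CDRT1 itself rose by 0.45 (adjusted p = 0.00894), from 9.29, 8.96 and 7.17 CPM to 11.4, 10.4 and 13.1 CPM. Its call was lost on both log2 RPKM scales (adjusted p up to 0.0595). Of its stretches, 41.9% occur in other genes and 28.9% in FBXW10. It also shares 1342 of 4286 exon bases (31.3%) with RP11-385D13.1 on the same strand, so its value is uncertain as well.

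FBXO16 shares the largest part of its exon bases with another gene on the same strand among the called members described here. It fell from 11.8, 11.8 and 13.1 CPM to 7.05, 8.999 and 8.56 CPM, without overlap (-0.58 ± 0.108, adjusted p = 7.67e-04). Of its 3972 exon bases, 2032 (51.2%) are also exon bases of ZNF395 on the same strand. ZNF395, with 693 to 1335 counts against 248 to 493 for FBXO16, fell by 0.51 (adjusted p = 1.70e-04). How reads on the shared bases were counted is not known here, so whether the 2 genes fell separately cannot be told from these counts.

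The remaining called members changed by small amounts. FBXO41, best known from neurons, rose from 30.3, 32.9 and 30.3 CPM to 37.0, 34.9 and 40.9 CPM (0.27 ± 0.0701, adjusted p = 0.00849). FBXO38, which marks the receptor PD-1 in T cells, rose from 44.1, 43.5 and 42.8 CPM to 49.0, 48.9 and 46.7 CPM (0.15 ± 0.0530, adjusted p = 0.0434). Neither had overlapping groups.

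FBXO28 fell from 55.4, 52.0 and 45.5 CPM to 44.8, 44.6 and 42.2 CPM (-0.22 ± 0.0697, adjusted p = 0.0271). FBXO46 fell from 6.77, 6.21 and 7.88 CPM to 5.21, 5.51 and 5.65 CPM (-0.35 ± 0.125, adjusted p = 0.0442), and shares 510 exon bases on the same strand with AC007191.4, which was at -0.33 and not called. FBXO28, FBXO38 and FBXO46 each lost the call in 5 of the 6 omissions, all but those of control replicate 3, 25(OH)D replicate 3 and control replicate 2, respectively. Over the omissions the adjusted p reached 0.146 for FBXO28, 0.118 for FBXO38 and 0.197 for FBXO46. The omission of control replicate 1 brought FBXO28 to -0.15.

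The 5 most abundant members were not called, and their intervals were narrow. FBXW5, which marks the centriole protein SAS-6, was at 71.3, 69.2 and 69.1 CPM in control and 66.2, 73.2 and 66.3 CPM in 25(OH)D (log2 fold change -0.03, 95% interval -0.14 to 0.09). FBXO11, which marks BCL6, was at 100.0, 101 and 100.4 CPM in control and between 101 and 103 CPM in 25(OH)D (0.01, -0.07 to 0.10), and 1785 of its exon bases lie opposite MSH6. BCL6 rose by 1.20 on the log2 scale (adjusted p = 2.21e-08), and EID1, which FBXO21 marks, rose by 0.19 (adjusted p = 0.00910, and up to 0.0967 on the log2 RPKM scales, where the call was lost). FBXO21 (-0.02, -0.12 to 0.09), FBXO45 (-0.08, -0.20 to 0.05), which acts at synapses, and FBXL14 (-0.01, -0.23 to 0.20), which marks SNAI1, also had intervals that span 0. SNAI1 had 0 to 2 counts.

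Of the 39 members tested and not called, 26 had a 95% interval of the log2 fold change wholly between -0.5 and 0.5. A change larger than that interval is outside what these libraries allow at that level of confidence, while the other 13 had too few counts or too wide a spread to be bounded so closely. FBXO24 (0.63, -0.13 to 1.39), FBXO36 (-0.55, -1.50 to 0.40) and FBXO15 (0.01, -0.94 to 0.96) had 9 to 38 counts in all but 1 library, where FBXO36 had 8.

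Beyond the 17, 6 members had groups that did not overlap without being called: FBXL12, FBXL15, FBXO3, FBXO7, FBXO24 and FBXO43. FBXO7, a gene of inherited parkinsonism, was at 17.1, 17.1 and 15.1 CPM against 18.1, 19.4 and 18.9 CPM (0.20, adjusted p = 0.0713). FBXL12 was at -0.31 (adjusted p = 0.109) and FBXL15 at 0.34 (adjusted p = 0.112). FBXL16 was singled out after its values were seen: it had 853, 678 and 639 counts in control and 501, 572 and 843 in 25(OH)D, with 25(OH)D replicate 3 the highest of all 6 libraries in CPM. It was at -0.03 with all libraries and at -0.34 without that one (adjusted p between 0.0128 and 0.902 over the 6 omissions).

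FBXL13 and FBXO47 complete the 5 members that did not pass the filter. FBXL13 had 2, 5 and 4 counts in control and 7, 6 and 3 in 25(OH)D. FBXO47 had 0 counts in 5 libraries and 2 in 25(OH)D replicate 3. At this depth neither could be compared between the groups.

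Of the F-box genes with other names, 2 rose (BTRC and CDRT1), 3 fell (SKP2, CCNF and KDM2B) and 2 were not called. Thus 71.4% of those tested were called, against 33.8% of all genes tested, and the list was not tested as a set. KDM2B, a histone demethylase, fell from 41.5, 42.6 and 41.1 CPM to 35.4, 36.5 and 35.8 CPM (-0.22 ± 0.0550, adjusted p = 0.00710). Its relative KDM2A was at -0.01 and TSPAN17 at -0.10. NCCRP1 had 0 to 2 counts, LRRC29 6 to 14 and ECT2L 0 to 15, and none of them passed the filter. The helicase gene FBH1 is listed as FBXO18 and was thus a member, at 0.07 and not called.

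Of 5 subunit genes of the cullin ligases that take F-box proteins, 1 was called (20%, against 33.8% of all genes tested). SKP1 rose from 190, 192 and 195 CPM to 221, 213 and 201 CPM (0.14 ± 0.0427, adjusted p = 0.0215), and lost the call without control replicate 1 or 2 or 25(OH)D replicate 1 or 2 (adjusted p at most 0.0981). CUL1 was at -0.06, its relative CUL7 at 0.07, RBX1 at 0.20 and RNF7, the second RING gene, at 0.31, and none was called. RBX1 and RNF7 passed without control replicate 3 or without 25(OH)D replicate 3 (lowest adjusted p 0.0356 and 0.0183). The median of these 5 genes was 0.14.

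Among 10 genes of ubiquitin transfer on SCF ligases, 1 rose and 3 fell (40% called, against 33.8% of all genes tested), with a median of -0.14. ARIH1, a ligase that places the first ubiquitin beside RBX1, rose from 43.3, 34.1 and 19.7 CPM to 45.8, 55.6 and 49.9 CPM (0.64 ± 0.186, adjusted p = 0.0163). Control replicate 3 was low, and the value was 0.39 without it and 0.91 without control replicate 1. The call was lost without 25(OH)D replicate 2 (adjusted p = 0.0667, the highest of the 6 omissions). With the DESeq2 Wald test and on both log2 RPKM scales it was lost too (adjusted p up to 0.148). CKS1B, the partner of SKP2 in gripping p27, fell from 23.1, 24.9 and 25.3 CPM to 18.2, 20.2 and 17.1 CPM (-0.40 ± 0.0789, adjusted p = 0.00120). The others that fell were UBE2D3 (-0.16, adjusted p = 0.0112), whose call was lost without 25(OH)D replicate 1, and CKS2 (-0.30, adjusted p = 0.0408), whose call was lost in each of the 6 omissions (adjusted p at most 0.0717 and 0.129).

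Among 10 neddylation genes, 1 rose and 3 fell (40% called, against 33.8% of all genes tested), with a median of -0.02. DCUN1D5 fell from 136, 129 and 125 CPM to 94.4, 93.6 and 101 CPM (-0.43 ± 0.0477, adjusted p = 6.12e-06), and its relative DCUN1D3 rose by 0.34 (adjusted p = 0.0326), a call lost without control replicate 1 or 25(OH)D replicate 2 or 3 (adjusted p at most 0.116). Both encode helpers that place NEDD8 on cullins. The others that fell were NAE1, a subunit of the enzyme that activates NEDD8 (-0.30, adjusted p = 0.00283), and DCUN1D2 (-0.32, adjusted p = 0.0407), which lost its call in 4 of the 6 omissions, all but those of control replicate 1 and 25(OH)D replicate 2 (adjusted p at most 0.156). A list of 13 genes held the subunits of the COP9 signalosome, which removes NEDD8, with the NEDD8 protease SENP8 and with CAND1 and CAND2, which exchange F-box proteins on CUL1. Of these, 12 were tested and 1 rose: CAND1, by 0.14 (adjusted p = 0.0287), lost in 4 of the 6 omissions, all but those of control replicate 3 and 25(OH)D replicate 3 (adjusted p at most 0.0904). Of the 12, 8.33% were called, against 33.8% of all genes tested, and their median was 0.06. CAND2 did not pass the filter, with 0, 4 and 2 counts in control and 20, 12 and 9 in 25(OH)D.

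**Figure D4:**
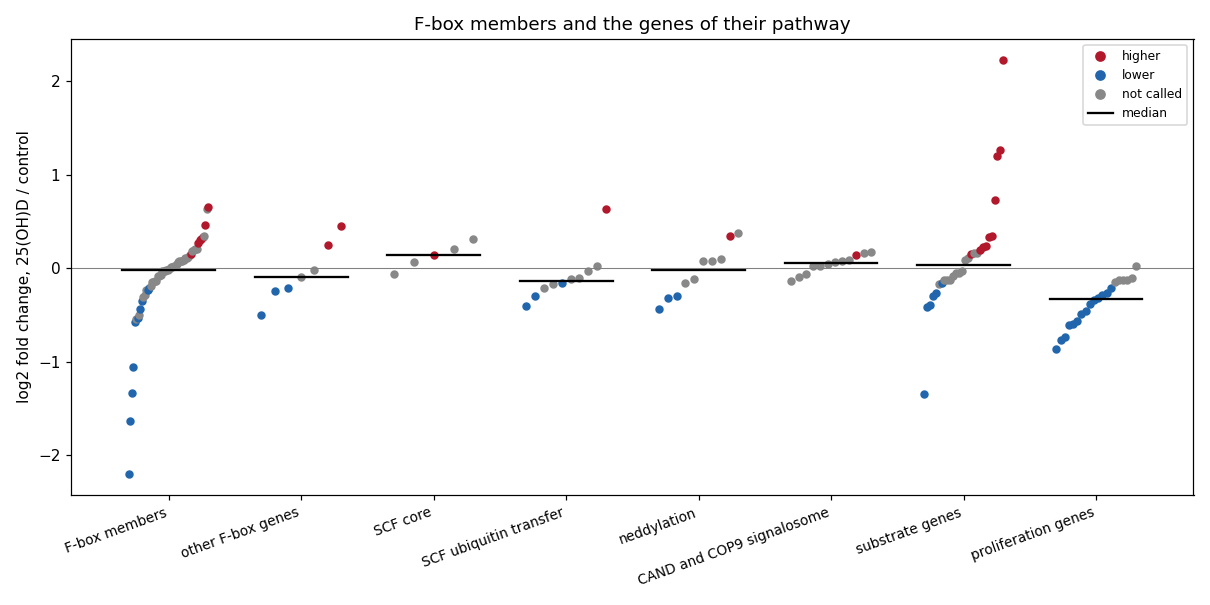
Log2 fold change of 25(OH)D over control (vertical axis) for the members tested and for 7 lists of related genes, each point a gene in order of its value within the list, with a bar at the median. The members and the ligase parts have medians near 0 (between -0.14 and 0.14), whereas the proliferation genes have a median of -0.33 and no gene called higher.

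A list of 30 genes whose proteins are known F-box targets moved in both directions. Of 28 tested, 10 rose and 6 fell (57.1% called, against 33.8% of all genes), and the median log2 fold change was 0.03. The list was chosen with earlier results of these data known, so this share cannot set F-box targets apart from other genes. In this list, 3 genes rose past 1 on the log2 scale, NFKBIA, CDKN1A and BCL6, and 1 fell past -1, MYC. AURKA, RRM2 and CCNE2 are also in the list of proliferation genes.

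The Kelch-like and DCAF families do for other cullins what F-box proteins do for CUL1, and are given beside the 30.4% of F-box members and the 33.8% of all genes that were called. Of 34 Kelch-like genes, receptors of CUL3, 24 were tested, 3 rose (KLHL8, KLHL24 and KLHL42) and 2 fell (KLHL35 and KLHL36), so that 20.8% were called, with a median of 0.04. Of 16 DCAF genes, receptors of CUL4, 14 were tested, 4 rose (DCAF6, DCAF8, DCAF10 and DCAF11) and 2 fell (DCAF4 and DCAF16), so that 42.9% were called, with a median of 0.01. No test of these shares against that of the F-box members was made. The count of genes past the study's limits was 1 higher and 0 lower for the Kelch-like genes, and 0 in both directions for the DCAF genes, beside 0 higher and 4 lower for the F-box members.

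The windows were also counted for CG dinucleotides, which are dense at the starts common to housekeeping genes. Of the 61 members, 47 matched a RefSeq window, and their median was 29 CG dinucleotides in 300 bases, against 14 in all windows. The 35116 windows were not matched to the members by kind of gene or by expression. The gap can thus not be read as a trait of the family. Other elements searched on both strands were the E2F site (TTTGGCGC or else TTTCGCGC or else TTTCCCGC or else TTTGGCGG) in 4.26% of members and 3.35% of all windows, the ATF4 site (TGATGCAA or else TGATGAAA or else TGATGTAA) in 0% and 2.78%, and the FOXO site TGTTTAC in 2.13% and 3.42%.

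Under the other ways of processing, 9 of the 17 called members were called in every one: FBXW7, FBXO32, FBXO5, FBXO2, FBXO44, FBXL7, FBXO16, FBXO31 and FBXW10. FBXL5, FBXO28, FBXO38, FBXO41, FBXO46, FBXW4 and FBXW11 each lost the call in at least 1 setting. The losses were uneven: FBXL5 lost the call only with limma on log2(RPKM + 1), whereas FBXO38 lost it in 5 omissions and in 7 other settings. All 17 kept their direction in every setting run.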

How the data were processed

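The authors deposited the counts of reads on each gene, as whole numbers without normalization, and RPKM values, which the authors made by scaling each count to gene length and library total (largest relative difference on recomputing, 2.23e-13). The submitters' processing notes name Trimmomatic 0.36, featureCounts of Subread 1.5.1, edgeR 3.12.1 and GRCh38. The aligner and the strand setting of the counting are not given in the sources used here. Counts were tested in R 4.3.3 with edgeR 4.0.16 (TMM factors, the package's low-count filter, glmQLFit and glmQLFTest), 25(OH)D against control without covariates, with Benjamini-Hochberg adjustment over the 18183 genes tested and a threshold of 0.05. Standard errors are the absolute log2 fold change over the square root of F, and CPM uses TMM-scaled totals. The script was tested on simulated data. The biological coefficient of variation was 0.0788, and replicate libraries differed by more than sampling noise. Depth per library bounds the precision of low counts.

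Alternatives were other size factors, no filter, DESeq2 1.42.0, limma 3.58.1 on log2(RPKM + 1) or log2(RPKM + 0.1), the replicate number as a block, and the omission of each library. Named genes are every member that was called, past the study's limits or not tested, the 5 most abundant members, the F-box genes with other names, the SCF core, and the called gene with the smallest p per direction of each other list; targets paired in textbooks with a described receptor, and genes said to share its bases, were named after values were seen. The members and lists were chosen with earlier results of these data known. A member counted among those called is left out of the text and the labelled plots, since it is not reported here.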

Additional observations from a re-analysis of the deposited data

How the results depend on the processing

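Of the 17 members called, 17 were also called with DESeq2 size factors, 15 with library sizes alone, 16 with upper-quartile factors, 15 without the low-count filter and 15 with the DESeq2 Wald test. On log2(RPKM + 1) with limma, 10 were kept and FBXL12 was added (adjusted p = 0.0466). The members called higher went from 7 to 2 on that scale and to 3 on log2(RPKM + 0.1), and the members past the study's limits and lower went from 4 to 0 on log2(RPKM + 1), where the added 1 shrinks fold changes of genes near or under 1 RPKM. FBXL7 was at -0.24 there. The higher genes of the 7 lists went from 16 to 6 on both RPKM scales (28 were lower with edgeR), and those of the Kelch-like and DCAF families from 7 to 3 on both. Outside the members, MCL1, SKP1, CAND1, DCUN1D3 and CDRT1 lost the call on both RPKM scales, as ARIH1, BTRC and CCNF did. Of these, MCL1, SKP1, CAND1 and DCUN1D3 also lost it with library sizes alone and with upper-quartile factors. With the DESeq2 Wald test ARIH1, CCNF, CKS2, DCUN1D2, DCUN1D3 and COL1A1 lost it. Leaving out 1 library kept between 12 and 14 of the 17. Near 0 and not called, signs changed: FBXO11 was at -0.0295 with library sizes alone, -0.0270 with upper-quartile factors, -0.0275 on log2(RPKM + 1) and -0.0292 on log2(RPKM + 0.1), and over the omissions FBXW5 ranged from -0.070 to 0.0080, FBXO21 from -0.033 to 0.023, FBXL14 from -0.11 to 0.073 and KDM2A from -0.018 to 0.0085. No scaling moved the median of all genes below -0.055. Deviations of same-numbered libraries correlated at -0.072, -0.012 and -0.046, so no pairing by number was seen. With 3 libraries per group these values cannot show whether same-numbered libraries were handled together. With the replicate number as a block, 15 of the 17 members were called, without FBXO38 and FBXO46 (adjusted p = 0.0569 and 0.0554). Members under about 1 RPKM have few counts, which limits what can be said of them. Reads on exon bases that 2 genes share may not be separable, and the shared part differed widely. It was 51.2% of the exon bases of FBXO16 and 1.23% of those of FBXW7. Where no cause is given above, the cause was not tested.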
